A study of Mus musculus with 12 samples.

Results

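The genes described here encode the machinery that stores neurotransmitter in synaptic vesicles and releases it: SNAREs and the factors that act on them, calcium sensors and complexins, vesicle proteins, synapsins, active zone scaffolds and vesicular glutamate transporters. They were chosen by symbol, as 38 of the 55385 Ensembl genes in the deposited count table, and all 38 were matched, counted and tested. The measurements are RNA-seq libraries from the hippocampus of adult mice of 4 genotypes, with 3 libraries each. Kcnip3 KO-5xFAD mice carried the Kcnip3 knockout and the 5xFAD transgenes, 5xFAD mice carried the transgenes alone, Kcnip3 KO mice carried the knockout alone, and WT mice had neither. The 5xFAD transgenes are mutant human genes driven by Thy1 regulatory sequences, so they are expressed mainly in neurons, and the mice develop amyloid plaques. The Kcnip3 product, KChIP3, is also called DREAM (or calsenilin). It binds calcium, associates with Kv4 potassium channels and can repress transcription. RNA came from the hemisphere opposite to the hemisphere taken for proteomics. Whether the 3 libraries of a genotype are 3 separate animals is not given in the sources used here, so p-values measure only the spread between these libraries.

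Neurotransmitter release begins when an action potential lets calcium into the presynaptic terminal. Vesicles held at the active zone by scaffolds such as Bassoon, Piccolo and RIM are made ready for fusion by Munc13 and complexin, and synaptotagmin senses the calcium. The vesicle SNARE VAMP then zips with syntaxin and SNAP-25 on the plasma membrane, and NSF with SNAP adaptors takes the spent complex apart for reuse. In the hippocampus most of these terminals release glutamate, which VGLUT1 loads into vesicles.

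Some libraries went against their labels. Kcnip3 was at 125 CPM (a gene's counts relative to the total of its library, scaled by TMM) in the library labelled Kcnip3 KO 3, against 63.4 to 84.9 CPM in the other 5 libraries labelled as knockout and 138 to 162 CPM in the 6 others. Thy1, whose regulatory sequences drive the transgenes, was at 926 CPM in the library labelled Kcnip3 KO-5xFAD 2 and at 2277 CPM in the library labelled WT 3, against 2592 to 4236 CPM in the other 5 libraries labelled 5xFAD and 747 to 887 CPM in the other 5 without that label. Counts per library ranged from 7664407 to 11310714, and the 38 genes took 1.69 ± 0.0366% of them in Kcnip3 KO-5xFAD, 1.69 ± 0.0766% in 5xFAD, 1.78 ± 0.0425% in Kcnip3 KO and 1.82 ± 0.0966% in WT (SD, n = 3). All 7 dentate granule and all 8 pyramidal neuron markers were detected. The summed level of 10 general neuronal markers was 3631 to 3754 CPM in Kcnip3 KO-5xFAD, 3572 to 3919 CPM in 5xFAD, 3732 to 3955 CPM in Kcnip3 KO and 3703 to 3880 CPM in WT, so these ranges overlapped. Some single markers did not overlap between 5xFAD and WT. Map2 was at 360 to 407 CPM in 5xFAD against 419 to 515 CPM in WT, and Elavl4 at 12.1 to 18.3 CPM against 23.0 to 33.2 CPM. Eno2 went the other way, at 1161 to 1236 CPM in 5xFAD against 1087 to 1152 CPM in WT.

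Per transcript length, in the deposited TPM raised back from log2, the 38 genes spanned a wide range of levels. Cplx1, which encodes complexin 1, was highest at 1219.7 TPM over the 12 libraries, and Rab3a, a vesicle GTPase, followed at 1104 TPM. Slc17a7, which encodes VGLUT1, averaged 1054 TPM and Vamp2, the main vesicle SNARE of forebrain terminals, 1050.4 TPM. Cplx2 at 898 TPM and Syp, the vesicle protein synaptophysin, at 853 TPM came next, and among these 6 genes each overlapped its neighbour in the order across libraries. Syp, with a lowest library of 772 TPM, did not overlap Syn1, which encodes synapsin I and had a highest library of 674 TPM. Snap25 averaged 582 TPM, and its highest library, at 768 TPM, was 2.25 times its lowest, at 341 TPM. The lowest levels belonged to Sv2c at 8.64 TPM, Unc13c at 5.28 TPM and Syn3 at 1.10 TPM. The genes that varied most between libraries were also low ones: Slc17a6, which encodes VGLUT2, spanned 8.98 times, Unc13c 7.35 times and Syt2 4.85 times in TPM, against 1.23 times for Vamp2.

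**Figure D1:**
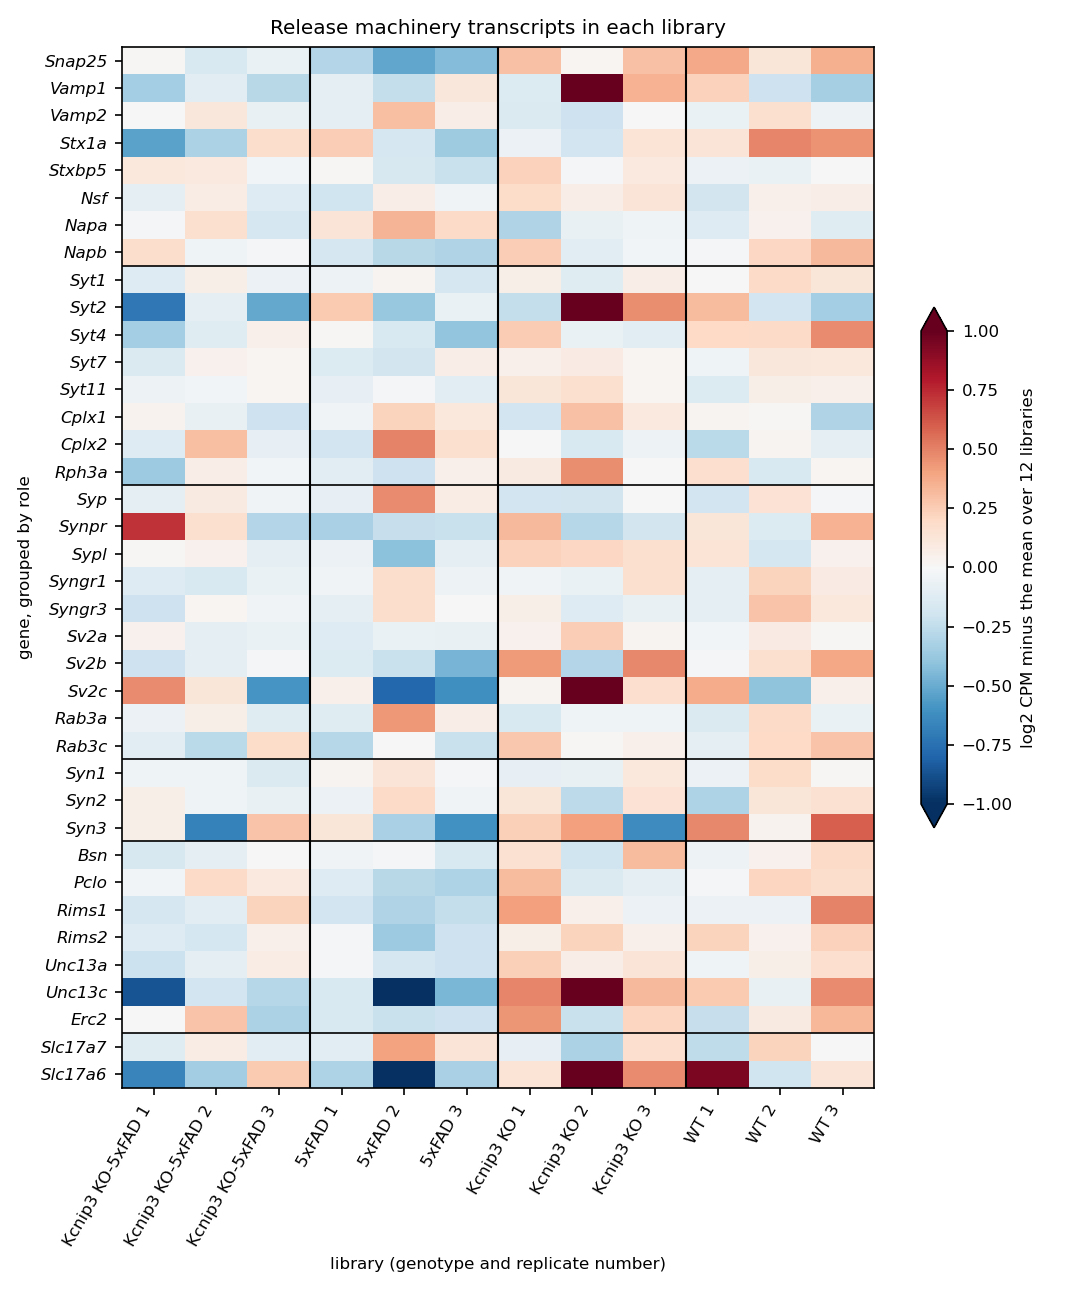
Level of each of the 38 genes (down, grouped by role) in each of the 12 libraries (across, by genotype), as log2 CPM minus that gene's mean over the 12 libraries; colours are capped at 1 on either side. The 3 5xFAD libraries are blue for Snap25 (823 to 965 CPM, against 1284 to 1536 CPM in WT), and Vamp1, Syt2, Unc13c, Sv2c and Slc17a6 are darkest red in the library labelled Kcnip3 KO 2.

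DREAM binds DNA at the downstream regulatory element, whose core is GTCA, so the promoters of the 38 genes were searched for that core on both strands (GTCA or TGAC). RefSeq promoters, from 250 bases before to 50 bases after a start on build GRCm38.p6, were matched for 31 of the 38 genes, Snap25 not among them, and gave 43 promoters. The core was in 35 of these 43 promoters (81.4%), against 85.2% of all 32851 promoters, so the core was about as frequent in this set as elsewhere. A core that most promoters hold could hardly show an enrichment in this set. The cAMP response element, TGACGTCA, which contains the core on both strands, was in 2 of the 43 promoters (4.65%), those of Napa and Syn1, against 1.79% of all promoters. A match is a description of the letters and not a site. The 4 promoters below belong to genes described in the comparisons, none of which passed the main adjusted edgeR test with all 12 libraries. They are Napa and Napb, whose values went opposite ways in 5xFAD, Pclo, an active zone gene without a core in this window, and Vamp1. The core and the response element are in capitals, and each sequence runs 5′ to 3′ on the gene's own strand. Napa lies at chr7:16098330-16098629 on the plus strand and holds 4 cores, Napb at chr2:148732371-148732670 on the minus strand with 2, Pclo at chr5:14514668-14514967 on the plus strand with 0, and Vamp1 at chr6:125215331-125215630 on the plus strand with 3.
Napa: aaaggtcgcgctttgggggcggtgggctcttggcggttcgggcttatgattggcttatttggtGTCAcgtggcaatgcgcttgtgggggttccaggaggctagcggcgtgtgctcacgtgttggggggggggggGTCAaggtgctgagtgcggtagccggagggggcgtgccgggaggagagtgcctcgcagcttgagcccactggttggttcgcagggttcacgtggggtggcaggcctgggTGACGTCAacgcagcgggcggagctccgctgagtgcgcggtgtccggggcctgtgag
Napb: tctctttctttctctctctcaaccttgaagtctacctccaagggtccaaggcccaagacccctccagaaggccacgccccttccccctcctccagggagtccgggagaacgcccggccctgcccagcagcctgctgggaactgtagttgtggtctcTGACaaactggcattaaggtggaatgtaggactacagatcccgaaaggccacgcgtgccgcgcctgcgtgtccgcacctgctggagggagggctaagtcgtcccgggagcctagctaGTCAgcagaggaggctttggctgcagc
Pclo: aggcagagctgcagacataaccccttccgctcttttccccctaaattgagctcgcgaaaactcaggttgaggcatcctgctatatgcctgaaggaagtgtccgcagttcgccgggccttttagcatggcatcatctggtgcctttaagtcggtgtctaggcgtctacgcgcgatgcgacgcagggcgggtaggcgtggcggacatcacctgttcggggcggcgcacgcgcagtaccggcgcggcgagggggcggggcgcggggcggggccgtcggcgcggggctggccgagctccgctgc
Vamp1: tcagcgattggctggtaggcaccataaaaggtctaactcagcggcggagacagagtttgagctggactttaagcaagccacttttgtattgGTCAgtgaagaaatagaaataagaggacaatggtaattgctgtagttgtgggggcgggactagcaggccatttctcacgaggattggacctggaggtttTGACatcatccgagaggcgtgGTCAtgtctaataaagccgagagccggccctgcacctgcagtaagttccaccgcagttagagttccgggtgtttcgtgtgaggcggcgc

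In 5xFAD against WT hippocampus, Snap25 was the only gene of the 38 to pass the main test in edgeR, and it fell. DESeq2 called Napb, Syt4 and Rims2 as well, with the share of all genes given further on. Snap25 encodes the plasma membrane SNARE SNAP-25, and the gene (ENSMUSG00000027273) lies at chr2:136713453-136782428 on GRCm38. It was at 965, 823 and 875 CPM in the 5xFAD libraries, against 1536, 1284 and 1513 CPM in the WT libraries. The highest 5xFAD library was below the lowest WT library. The log2 fold change was -0.70 ± 0.11 (SE, adjusted p = 0.0173 in edgeR's quasi-likelihood test with Benjamini-Hochberg adjustment over 15905 genes), a level 0.614 times that of WT. This 1 call among 38 genes stands beside 3.53% of all tested genes called in either direction and 1.62% called lower. With the fit rerun on 10 libraries, leaving out those named WT 3 and Kcnip3 KO-5xFAD 2, Snap25 was again the only gene of the 38 called (log2 fold change -0.67, adjusted p = 0.0249), beside 1.30% of all genes. The call was lost, with the direction kept, without WT 1 (adjusted p = 0.0824), WT 3 (0.0573), 5xFAD 2 (0.096) or 5xFAD 3 (0.0866). In bulk RNA, fewer cells of a type and less RNA per cell cannot be told apart.

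Among the other SNAREs and fusion factors, the 2 SNAP adaptors that bring NSF to the SNARE complex went opposite ways in value. Napb, which encodes the neuronal form beta-SNAP, was at 289.8, 268 and 264 CPM in 5xFAD, against 319.9, 376 and 407 CPM in WT. Napa, which encodes the widely expressed alpha-SNAP, was at 327, 379 and 342 CPM in 5xFAD, against 274, 309 and 275 CPM in WT. For Napb every 5xFAD library was below every WT library, and for Napa every 5xFAD library was above every WT library. The log2 fold changes were -0.42 ± 0.12 for Napb (adjusted p = 0.0563) and 0.29 ± 0.11 for Napa (adjusted p = 0.124), so neither passed the threshold in edgeR. Stx1a, the plasma membrane syntaxin, had 277, 208.5 and 183 CPM in 5xFAD, against 256, 328.5 and 319.7 CPM in WT, groups that overlapped (log2 fold change -0.44, adjusted p = 0.166). Vamp2 averaged 1318 ± 182 CPM in 5xFAD and 1247 ± 114 CPM in WT, and Nsf 814 ± 75.8 CPM in 5xFAD and 831 ± 77.5 CPM in WT (SD, n = 3), differences within the spread of either group.

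The 7 active zone genes all had lower values in 5xFAD than in WT, with a median log2 fold change of -0.36, while the median over all tested genes was 0.014 and 48.3% of all genes were negative. None of the 7 passed the adjusted threshold in edgeR, and 4 had an unadjusted p under 0.05, beside 12.9% of all genes lower at that p. With each library corrected for transcript length and GC content, as described further on, the 7 were still negative but their median was -0.13, and 1 of them had an unadjusted p under 0.05. Rims2, a RIM scaffold that binds Rab3 and calcium channels, was at 54.2, 42.7 and 47.4 CPM in 5xFAD, against 64.2, 56.7 and 64.5 CPM in WT (log2 fold change -0.36 ± 0.11, adjusted p = 0.0731). Pclo, which encodes the very large scaffold Piccolo, was at 78.2, 70.8 and 69.1 CPM in 5xFAD, against 85.0, 99.4 and 96.7 CPM in WT (log2 fold change -0.37 ± 0.12, adjusted p = 0.0915). In both genes the 5xFAD libraries lay below the WT libraries without overlap. Rims1 (log2 fold change -0.39, adjusted p = 0.153) and Unc13c, a Munc13 priming factor (-0.74, adjusted p = 0.184), were the other 2 of those 4. Bsn, Unc13a and Erc2 had log2 fold changes between -0.28 and -0.13.

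Of the 8 calcium sensors and complexins, 5 had lower values in 5xFAD and 0 were called in edgeR. Syt4, a synaptotagmin that does not bind calcium as Syt1 does, was at 96.3, 85.9 and 72.5 CPM in 5xFAD, against 109.7, 109 and 132 CPM in WT. No library overlapped between the groups, and the log2 fold change was -0.47 ± 0.14 (adjusted p = 0.0686). Syt1, the main fast calcium sensor of forebrain synapses, averaged 987 ± 67.8 CPM in 5xFAD and 1109.6 ± 71.6 CPM in WT (SD, n = 3; log2 fold change -0.17, adjusted p = 0.308). Cplx1 and Cplx2, the complexins that clamp and assist fusion, had log2 fold changes of 0.18 and 0.29 (adjusted p = 0.408 and 0.277).

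Of the 10 vesicle proteins 8 had lower values, of which Sv2b, a membrane glycoprotein of vesicles, had the smallest p. It was at 224, 211 and 179 CPM in 5xFAD, against 245, 275 and 323 CPM in WT, with no overlap (log2 fold change -0.46 ± 0.17, adjusted p = 0.125). Syp averaged 1540.2 ± 315 CPM in 5xFAD and 1352 ± 157 CPM in WT (SD, n = 3), within the spread of the 5xFAD group. Among the synapsins, which tether vesicles to the cytoskeleton, Syn3 was at 4.06, 2.98 and 2.44 CPM in 5xFAD, against 5.21, 3.83 and 5.64 CPM in WT, groups that overlapped (log2 fold change -0.64 ± 0.32, adjusted p = 0.223). Slc17a6 was at 12.4, 5.39 and 12.3 CPM in 5xFAD, against 29.6, 13.4 and 16.8 CPM in WT. Every 5xFAD library was lower, yet the log2 fold change of -0.97 ± 0.44 had an adjusted p of 0.198. WT 1 alone held 29.6 CPM, and with 1 library left out the log2 fold change lay between -1.20 and -0.57, smallest without WT 1. Slc17a7, the main hippocampal transporter, averaged 1940.0 ± 345 CPM in 5xFAD and 1745 ± 286 CPM in WT (SD, n = 3).

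Counted over the whole set, 28 of the 38 genes had a negative log2 fold change in 5xFAD against WT, with a median of -0.13, while 48.3% of all tested genes were negative. At an unadjusted p under 0.05 there were 10 lower genes and 1 higher gene, Napa, beside 12.9% of all genes lower and 12.4% higher. Libraries did not overlap for 11 lower genes and for Napa, beside 13.9% of all genes lower and 13.7% higher. The 26.3% of the set that was lower at that p and the 28.9% that was lower without overlap are each above those shares of all genes. Along with these values, 6 of 11 microglial markers rose, beside 3.53% of all genes called in either direction. The summed level of the 11 was 1357 to 1820 CPM in 5xFAD, against 407 to 724 CPM in WT. The 724 CPM was in the library labelled WT 3, and WT 1 and WT 2 were at 423 and 407 CPM. The summed levels of 4 more marker lists also did not overlap between the groups. They were 6454 to 7568 CPM in 5xFAD against 4268 to 5029 CPM in WT for 8 astrocyte markers. For 8 oligodendrocyte markers they were 5946 to 8261 CPM in 5xFAD against 3492 to 5811 CPM in WT. The sums were 766 to 911 CPM in 5xFAD against 914 to 956 CPM in WT for 9 markers of GABA neurons. For 7 cortical markers they were 181 to 344 CPM in 5xFAD against 354 to 369 CPM in WT. Single markers did not all follow their sum. Among the astrocyte markers, Gfap averaged 2423 CPM in 5xFAD and 566 CPM in WT, while Gja1, Slc1a2 and Slc1a3 had lower means in 5xFAD. Pvalb and Sst among the GABA neuron markers, and Fezf2 among the cortical markers, had higher means in 5xFAD. The part of these cells and of the dissection in the values of the 38 genes was not tested.

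**Figure D2:**
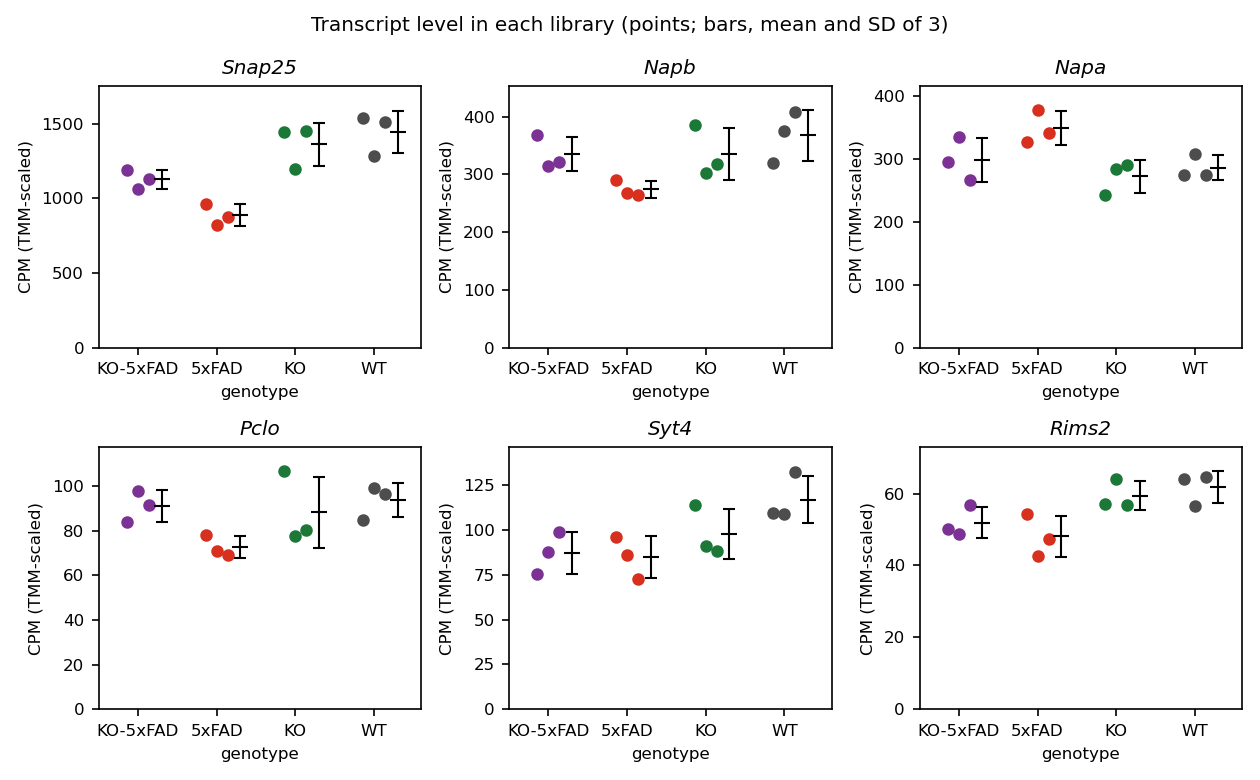
CPM (vertical axis, TMM-scaled) of 6 genes in each library by genotype; points are libraries and bars are the mean and SD of 3. In 5xFAD, Snap25 (823 to 965 CPM), Napb, Pclo, Syt4 and Rims2 sit below every WT library and Napa above every WT library.

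In 5xFAD against WT, the size of the difference followed the base composition of the transcript. Across the 38 genes, the log2 fold change in 5xFAD against WT was set against the GC content of the longest transcript. The Pearson r was 0.56 and the Spearman rho 0.53, over genes that are not independent replicates and come from the same libraries. The Pearson r was 0.15 in Kcnip3 KO-5xFAD against Kcnip3 KO and -0.086 in Kcnip3 KO against WT. Of the 21 genes under 50% GC, 19 were lower in 5xFAD, with a median log2 fold change of -0.37, while all 7991 tested genes in that range had a median of -0.13. Of the 17 genes at or above 50% GC, 9 were lower, with a median of -0.0005, while all 7907 such genes had a median of 0.13. Snap25, at 38.7% GC in a transcript of 4880 bases, was the most AT-rich of the set. Genes outside the set with a GC content under 42% also shifted by library, in the same order as Snap25 within 5xFAD but not within the other 3 genotypes: their median deviation from the mean over 12 libraries was -0.064 in 5xFAD 1, -0.32 in 5xFAD 2 and -0.21 in 5xFAD 3, and ranged from 0.040 to 0.050 in Kcnip3 KO-5xFAD and from -0.024 to 0.18 in Kcnip3 KO and from -0.020 to 0.18 in WT.

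When each library was corrected for transcript length and GC content, the Snap25 difference in 5xFAD against WT was -0.34 on the log2 scale (edgeR, adjusted p = 0.0794) and no longer passed the threshold. Napb moved to -0.25 (adjusted p = 0.254), Pclo to -0.10 and Napa to 0.12. After the correction edgeR called 0 of the 38 genes in 5xFAD against WT, beside 0.641% of all genes. At an unadjusted p under 0.05, 1 gene was higher and 5 were lower, beside 8.74% of all genes higher and 8.41% lower, and the median over the 38 genes was -0.10. The Pearson r with GC content became 0.022, a low value that follows from the correction, which takes out each library's trend with GC content.

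**Figure D3:**
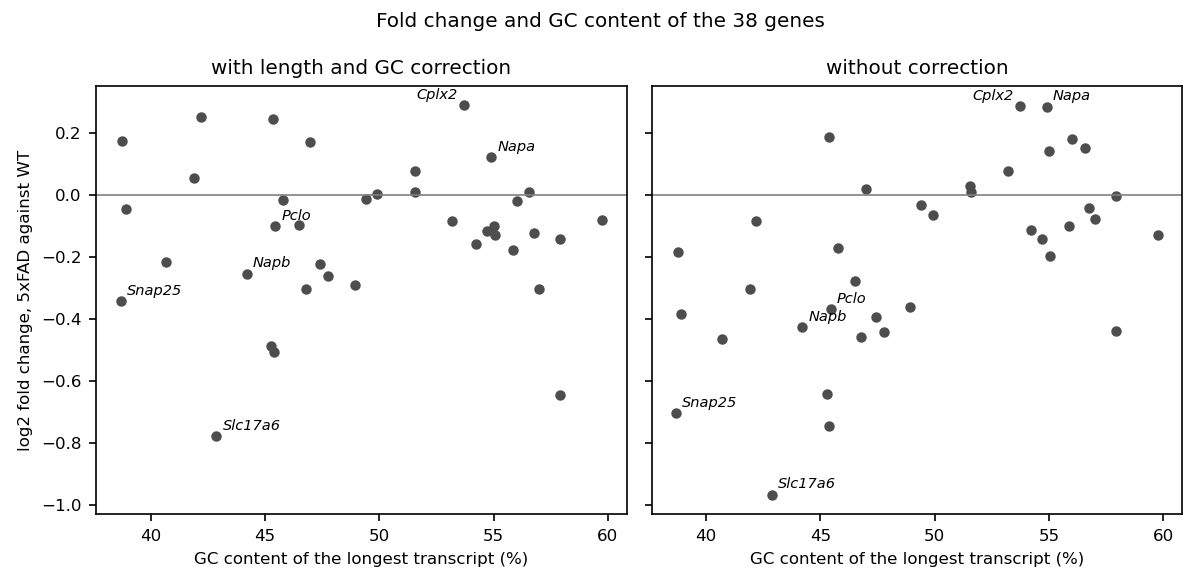
Log2 fold change in 5xFAD against WT (vertical axis) against the GC content of the longest transcript in percent (horizontal axis) for the 38 genes, with (left) and without (right) correction of each library for transcript length and GC content. Without the correction, the median is -0.37 for the 21 genes under 50% GC and -0.0005 for the 17 others (Pearson r 0.56 over the 38). With it r is 0.022, which follows from the correction itself.

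Kcnip3 KO-5xFAD against 5xFAD asks about the loss of Kcnip3 on the transgenic background, with the library labelled Kcnip3 KO-5xFAD 2, low in Thy1, among its 6. It shares the 5xFAD libraries with the comparison above, so a low 5xFAD group enters both. Here edgeR called 0 of the 38 genes, beside 0.0692% of all genes, and DESeq2 also called 0. At an unadjusted p under 0.05 there were 4 higher genes and 0 lower, beside 6.44% of all genes higher and 3.92% lower. Without overlap, 4 were higher (Snap25, Napb, Pclo and Rims1) and 2 lower (Syngr1 and Syn1), beside 9.05% and 7.29% of all genes. Snap25 was at 1188, 1065 and 1126 CPM in Kcnip3 KO-5xFAD, against 965, 823 and 875 CPM in 5xFAD, without overlap (log2 fold change 0.34 ± 0.11, adjusted p = 0.426, and 0.38 with adjusted p = 0.53 without WT 3 and Kcnip3 KO-5xFAD 2). The other 3 were Pclo (log2 fold change 0.33, adjusted p = 0.439), Napb (0.29, adjusted p = 0.445) and Synpr, which encodes the vesicle protein synaptoporin (0.52, adjusted p = 0.474). Synpr was at 75.7, 51.5 and 37.6 CPM in Kcnip3 KO-5xFAD, against 36.7, 39.1 and 39.5 CPM in 5xFAD, so Kcnip3 KO-5xFAD 1 and 2 were above all 5xFAD libraries, Kcnip3 KO-5xFAD 3 was not, and the groups overlapped. The pattern with GC content was reversed in this comparison. Of the 21 genes under 50% GC, 2 were lower and the median was 0.16, and of the 17 others 14 were lower and the median was -0.12 (Pearson r -0.66 over the 38 genes). With the length and GC correction, Snap25 differed by 0.055 and the Pearson r was -0.078, a low value that the correction itself brings about.

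Kcnip3 KO-5xFAD against Kcnip3 KO sets libraries labelled as carrying the transgenes and the knockout against libraries labelled as carrying the knockout alone. The library labelled Kcnip3 KO-5xFAD 2 went against its label in Thy1 and the library labelled Kcnip3 KO 3 in Kcnip3, as given above. Here edgeR called 0 of the 38 genes and 0% of all genes, while DESeq2 called 1 of the 38, Unc13c. The share of all genes that DESeq2 called in this comparison is not given, so this call is not read as a result about the set. At an unadjusted p under 0.05 there were 6 lower genes and 0 higher, beside 4.33% of all genes lower and 6.09% higher. Libraries did not overlap for 4 lower genes (Snap25, Syt11, Sypl and Unc13c), beside 7.25% of all genes. Of the set, 30 of the 38 had a negative log2 fold change, with a median of -0.15, beside 50.2% of all genes. Snap25 was at 1188, 1065 and 1126 CPM in Kcnip3 KO-5xFAD, against 1444, 1197 and 1449 CPM in Kcnip3 KO. The groups did not overlap, and the log2 fold change was -0.27 ± 0.11 (adjusted p = 0.425), set beside -0.70 for 5xFAD against WT. With the length and GC correction, Snap25 was at -0.24 here and at -0.34 in 5xFAD against WT, so these values lay closer together. The other values of this paragraph, the interaction among them, are without that correction. Without WT 3 and Kcnip3 KO-5xFAD 2, edgeR again called 0 of the 38 genes, beside 1.30% of all genes, and Snap25 was at -0.24 (adjusted p = 0.718) and Unc13c at -1.45 (adjusted p = 0.18). Without Kcnip3 KO 3, edgeR called 0 of the 38 and 0% of all genes, and Snap25 was at -0.23 (adjusted p = 0.607) and Unc13c at -1.53 (adjusted p = 0.406). With all 12 libraries, the difference between the changes of Kcnip3 KO-5xFAD against Kcnip3 KO and of 5xFAD against WT, the interaction, was 0.43 ± 0.16 for Snap25 (adjusted p = 0.853) and was called for 0 of the 38 genes and 0% of all genes in edgeR. At an unadjusted p under 0.05 the interaction counted Snap25, Napb and Pclo, beside 5.26% of all genes.

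Unc13c was at 6.76, 10.8 and 10.1 CPM in Kcnip3 KO-5xFAD, against 17.3, 36.1 and 15.4 CPM in Kcnip3 KO. Its groups did not overlap, and its log2 fold change of -1.31 ± 0.33 had an adjusted p of 0.251 in edgeR and 0.0136 in DESeq2. Vamp1, a vesicle SNARE of fast-firing and brainstem circuits, was at 128, 150.4 and 134 CPM in Kcnip3 KO-5xFAD, against 148, 337 and 207 CPM in Kcnip3 KO, groups that overlapped (log2 fold change -0.74 ± 0.25, adjusted p = 0.348). Syt2, the fast calcium sensor of such circuits, was at 25.7, 39.3 and 29.6 CPM in Kcnip3 KO-5xFAD, against 35.7, 119 and 58.1 CPM in Kcnip3 KO, also overlapping (log2 fold change -1.16 ± 0.39, adjusted p = 0.36). In each of these genes the highest value of the 12 libraries was the library labelled Kcnip3 KO 2. Slc17a6 was at 9.76, 12.1 and 18.4 CPM in Kcnip3 KO-5xFAD, against 16.9, 41.1 and 21.4 CPM in Kcnip3 KO, with the same library highest (log2 fold change -0.98 ± 0.43, adjusted p = 0.469). Sv2b ran the other way in that library: it was at 213, 231 and 243 CPM in Kcnip3 KO-5xFAD, against 331, 201 and 343 CPM in Kcnip3 KO, groups that overlapped (log2 fold change -0.35 ± 0.17, adjusted p = 0.511). Syn1 was at 582, 581 and 542 CPM in Kcnip3 KO-5xFAD, against 564, 569 and 644 CPM in Kcnip3 KO, within the spread of the Kcnip3 KO group (log2 fold change -0.060 ± 0.097, adjusted p = 0.854, and 0.0040 without Kcnip3 KO 3).

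The summed level of 7 thalamic markers was 326 CPM in the library labelled Kcnip3 KO 2, against 73.7 to 237 CPM in the other 11 libraries, and Prkcd, which marks thalamic relay neurons, was at 165 CPM there. Without that library, Unc13c was at a log2 fold change of -0.83 in Kcnip3 KO-5xFAD against Kcnip3 KO, Vamp1 at -0.36, Syt2 at -0.57 and Slc17a6 at -0.52. Thalamic relay neurons use VGLUT2, and the part of thalamic tissue in these values was not tested. The next highest thalamic sums, 237 CPM in Kcnip3 KO 3 and 231 CPM in 5xFAD 3, went with 58.1 and 40.3 CPM of Syt2 and 21.4 and 12.3 CPM of Slc17a6. WT 1 followed with a thalamic sum of 177 CPM, 52.4 CPM of Syt2 and 29.6 CPM of Slc17a6.

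**Figure D4:**
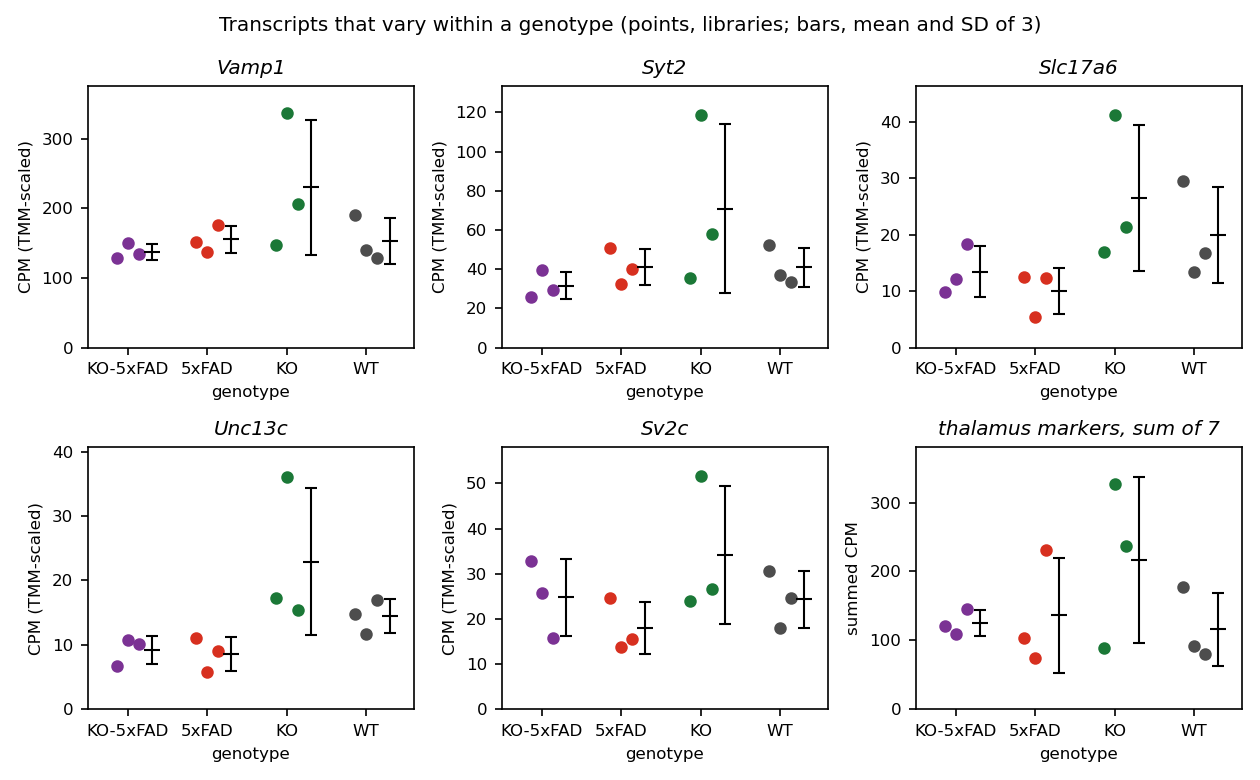
CPM (vertical axis, TMM-scaled) of the 5 genes that varied most within a genotype, and the summed CPM of 7 thalamic markers, by genotype; points are libraries and bars are the mean and SD of 3. One Kcnip3 KO library is the highest in every panel (337 CPM of Vamp1, 119 CPM of Syt2, 326 CPM of thalamic markers).

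Kcnip3 KO against WT, which shares the Kcnip3 KO and WT libraries with the comparisons above, gave values near those of WT for most of the 38 genes. The median log2 fold change was -0.006, and edgeR called 0 of the 38, beside 0.0503% of all genes. DESeq2 also called 0. At an unadjusted p under 0.05 the count was 1, Vamp1, beside 4.51% of all genes. Vamp1 was at 148, 337 and 207 CPM in Kcnip3 KO, against 191, 141 and 129 CPM in WT (log2 fold change 0.59 ± 0.25, adjusted p = 0.999), and the groups overlapped. Without the library labelled Kcnip3 KO 2, the Vamp1 value was 0.21. Nsf, the ATPase that takes SNARE complexes apart, and Sypl, a synaptophysin-like protein, were higher in Kcnip3 KO without overlap, 2 of 38 beside 4.58% of all genes, with log2 fold changes of 0.15 and 0.19. Snap25 was at 1444, 1197 and 1449 CPM in Kcnip3 KO, against 1536, 1284 and 1513 CPM in WT, and the groups overlapped (log2 fold change -0.084 ± 0.11, adjusted p = 0.999). Snap25 lies 9.19 Mb and Napb 21.2 Mb from Kcnip3 on chromosome 2.

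**Figure D5:**
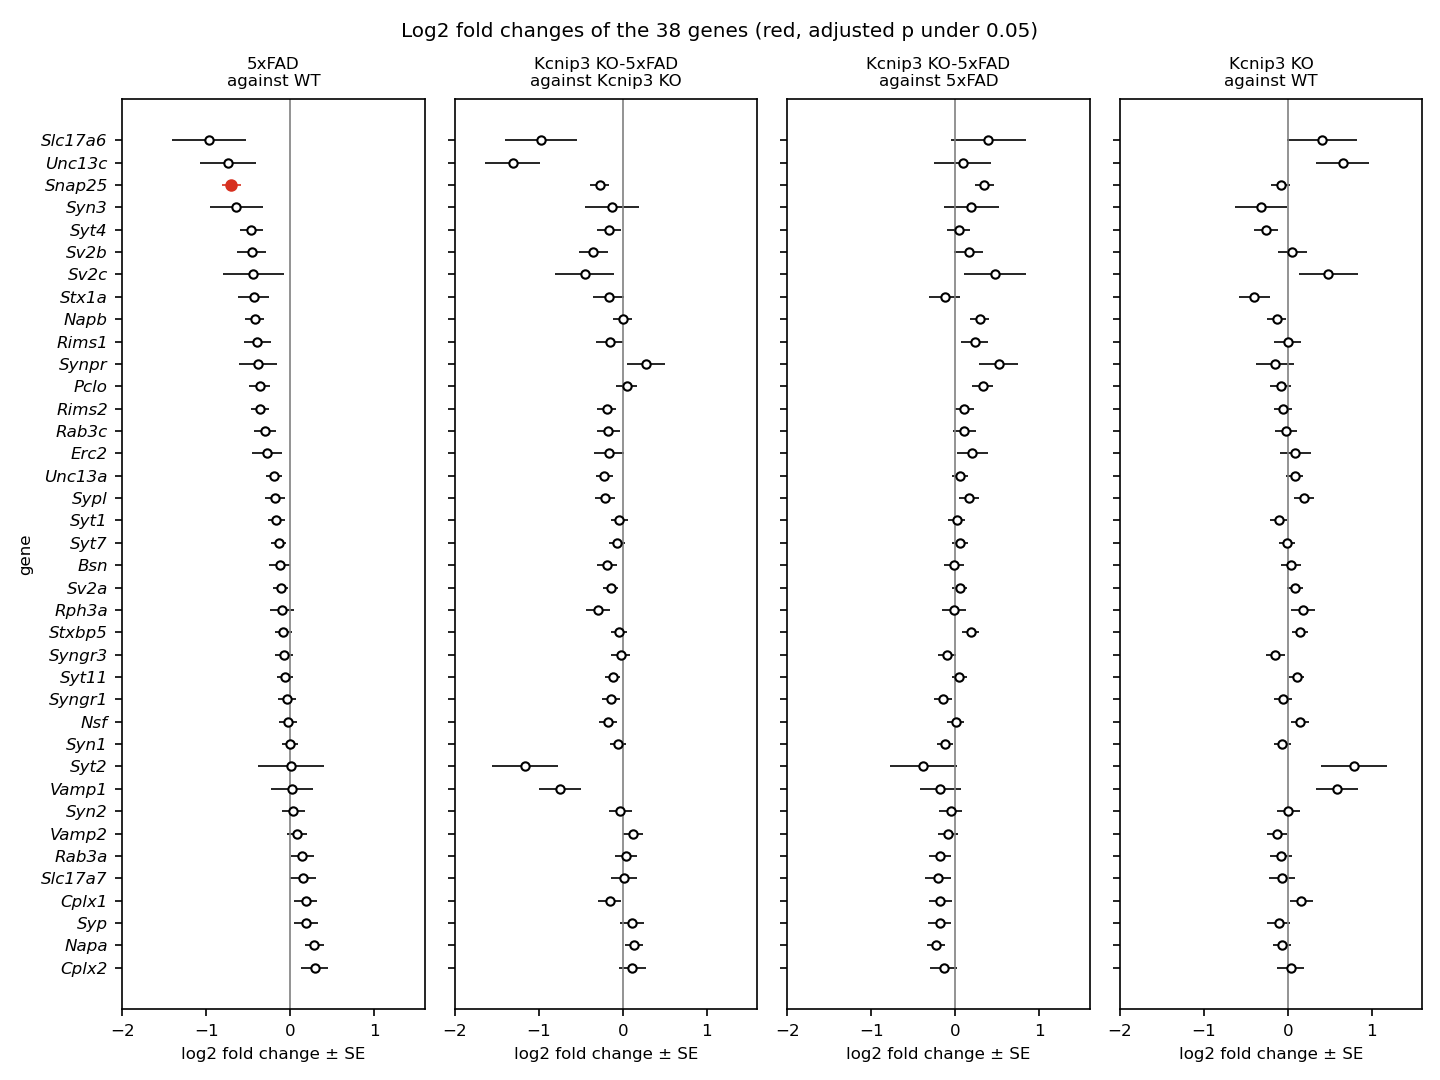
Log2 fold change ± SE (horizontal axes) of the 38 genes (down, in the order of the 5xFAD against WT change) in 4 comparisons; red marks an adjusted p under 0.05. Snap25 in 5xFAD against WT, at -0.70 ± 0.11, is the only red point.

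Paralogues of the same protein family were set against each other within each library, which removes the scaling of the library. It does not remove a shift with GC content, and the ratios were not corrected for one. The longest transcript was 42.9% GC for Slc17a6 and 56.6% for Slc17a7, and 46.8% for Sv2b and 54.2% for Sv2a. Vamp2 was at 1226, 1328 and 1169 CPM in Kcnip3 KO-5xFAD, 1153, 1513 and 1288 CPM in 5xFAD, 1114, 1066 and 1236 CPM in Kcnip3 KO, and 1173, 1378 and 1189.9 CPM in WT. Syt1 was at 939, 1070.1 and 990.0 CPM in Kcnip3 KO-5xFAD, 996, 1049.6 and 915 CPM in 5xFAD, 1073, 944 and 1076 CPM in Kcnip3 KO, and 1034, 1177 and 1118 CPM in WT. The 4 genotypes overlapped for both genes. Slc17a7 was at 1599, 1837 and 1611 CPM in Kcnip3 KO-5xFAD, 1616, 2303 and 1901 CPM in 5xFAD, 1645, 1395 and 1957 CPM in Kcnip3 KO, and 1463, 2034 and 1738 CPM in WT, with 5xFAD 2 highest and Kcnip3 KO 2 lowest. Sv2a was at 529, 480.5 and 491 CPM in Kcnip3 KO-5xFAD, 468, 489.5 and 488 CPM in 5xFAD, 529, 608 and 523 CPM in Kcnip3 KO, and 504, 542.5 and 516 CPM in WT, so every 5xFAD library was below every WT library by a small margin. Syn1, given above for the other genotypes, was at 610.3, 656 and 589 CPM in 5xFAD, against 575, 678 and 602 CPM in WT. Syn2 was at 701, 653 and 637 CPM in Kcnip3 KO-5xFAD, 644, 767 and 656 CPM in 5xFAD, 729.9, 562 and 742 CPM in Kcnip3 KO, and 543, 731 and 747 CPM in WT. For the synapsins too the genotypes overlapped, apart from Syn1 in Kcnip3 KO-5xFAD against 5xFAD. VGLUT2 transcript was 0.816 ± 0.295% of VGLUT1 transcript in TPM in Kcnip3 KO-5xFAD, 0.562 ± 0.283% in 5xFAD, 1.70 ± 1.09% in Kcnip3 KO and 1.23 ± 0.715% in WT (SD, n = 3). The log2 ratio of Slc17a6 to Slc17a7 counts averaged -7.34 over the 6 libraries labelled 5xFAD and -6.29 over the 6 others, a difference of -1.05 (two-sided exact permutation p = 0.039, adjusted p = 0.195 over 5 pairs). Vamp1 was 4.16 ± 0.206% of Vamp2 in TPM in Kcnip3 KO-5xFAD, 4.50 ± 0.939% in 5xFAD, 7.70 ± 3.66% in Kcnip3 KO and 4.67 ± 1.25% in WT. Syt2 was 3.45 ± 0.528% of Syt1 in Kcnip3 KO-5xFAD, 4.60 ± 1.11% in 5xFAD, 7.78 ± 5.31% in Kcnip3 KO and 4.09 ± 1.27% in WT. For the log2 count ratios, the difference between the libraries labelled 5xFAD and the others was -0.42 for Vamp1 to Vamp2 (exact permutation p = 0.117), -0.39 for Syt2 to Syt1 (p = 0.301) and -0.25 for Sv2b to Sv2a (p = 0.152). With 1 library left out, the difference lay between -0.53 and -0.21 for Vamp1 to Vamp2 and between -0.52 and -0.11 for Syt2 to Syt1, smallest in both without Kcnip3 KO 2. It lay between -1.24 and -0.77 for Slc17a6 to Slc17a7, smallest without 5xFAD 2. Syn2 and Syn1, the abundant synapsins, differed by 0.039 (exact permutation p = 0.621), and none of the 5 pairs passed adjustment over the 5.

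The other genes of the vesicle cycle were taken as 104 symbols in 6 groups, of which 101 were tested. In 5xFAD against WT, 6 of these 101 genes fell and 2 rose, beside 3.53% of all genes called and 1.62% called lower, and edgeR called 0 of the 101 in the other comparisons. With the length and GC correction 0 of the 101 were called (smallest adjusted p = 0.0514, for Doc2a and Dnm3), and without WT 3 and Kcnip3 KO-5xFAD 2 the only call was Syngr2 (adjusted p = 0.0179 in edgeR). The values that follow are those from all 12 libraries without that correction. Among the 14 other synaptotagmins and C2 proteins, Cadps, which encodes the dense-core vesicle priming factor CAPS1, was at 123, 101 and 114 CPM in 5xFAD, against 167, 149.6 and 169 CPM in WT, without overlap (log2 fold change -0.53, adjusted p = 0.0226). Doc2a, a high-affinity calcium sensor of spontaneous release, was at 19.2, 10.2 and 12.6 CPM in 5xFAD, against 24.8, 27.9 and 25.1 CPM in WT (log2 fold change -0.89, adjusted p = 0.0361). Among 22 endocytosis genes, which recover vesicle membrane after fusion, 3 fell: Dnm3, a dynamin (log2 fold change -0.69, adjusted p = 0.0261), Cltc, the clathrin heavy chain (-0.44, adjusted p = 0.0481), and Dnajc6, the uncoating factor auxilin (-0.50, adjusted p = 0.0484). Atp6ap2, an accessory protein of the proton pump that fills vesicles, fell by 0.62 on the log2 scale (adjusted p = 0.0371), 1 of 16 pump genes. Syngr2, a synaptogyrin found mainly outside neurons, rose, with 23.4, 26.5 and 28.2 CPM in 5xFAD, against 14.6, 12.7 and 15.0 CPM in WT (log2 fold change 0.89, adjusted p = 0.0233). Ppfia4, a liprin-alpha scaffold, rose as well (0.51, adjusted p = 0.0465), 1 of 16 other active zone genes. Of 21 other SNAREs and regulators 0 were called, and 1 gene was higher and 5 were lower at an unadjusted p under 0.05, beside 12.4% of all genes higher and 12.9% lower. The medians of the 6 groups lay between -0.23 and 0.045.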

How the data were processed

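Per the labels' protocols, a TruSeq mRNA kit was used. Upstream tools were HISAT2 2.1.0, featureCounts, FastQC 0.11.9, edgeR 3.38.4 and R 4.2.1, with genome build mm10, all per the submitters' processing notes. For the strand setting, the annotation release, the TPM gene lengths and any offset before the log, the sources used here give nothing, so reads of a gene and an overlapping antisense gene cannot be told apart. The authors deposited raw read counts per Ensembl gene, which served for every test, and a table of log2 TPM, which served for levels between genes and as an alternative. No molecular identifiers are described, so reads may not be independent molecules.

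Symbols came from GENCODE M21 on GRCm38. The quasi-likelihood test of edgeR 4.0.16 (R 4.3.3) was run on 1 model of all 12 libraries with a coefficient for each genotype. It used robust dispersions, TMM factors and filterByExpr. P-values were Benjamini-Hochberg adjusted over the 15905 genes tested, and a gene was called at an adjusted p under 0.05. Its common biological coefficient of variation came to 0.144. The interaction is the 5xFAD change without Kcnip3 minus that with it. The script was tested on simulated data. GC correction used smooth terms for transcript length and GC content per library (mgcv 1.9.3) as offsets. Alternatives were DESeq2 1.42.0 and its size factors, limma 3.58.1 on log2 TPM, other filters, fewer groups, a replicate block and libraries left out. Log2 count ratios of paralogues used a prior count of 0.5.

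The members, lists, rules and tests were chosen with earlier results of these data known. Values per library are given for genes called, for the gene of each role with the smallest p in 5xFAD against WT and in Kcnip3 KO-5xFAD against Kcnip3 KO, and for the 5 paralogue pairs. Napb, Napa, Pclo, Stx1a and Synpr per library, the split at 50% GC and the thalamic values were chosen after values were seen. Of the 104 other vesicle cycle symbols, 1 had no match in the annotation.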

Additional observations from a re-analysis of the deposited data

How the results depend on the processing

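In 5xFAD against WT, the count of called genes among the 38 was 1, and it was 8 with no filter on low counts (beside 6.70% of all genes), 2 with the stricter filter of 50 counts in 3 libraries (5.85%), 4 with DESeq2 (Snap25, Napb, Syt4 and Rims2, beside 4.47%), 0 with the length and GC correction, 0 with that correction and the replicate block, and 0 without WT 3, Kcnip3 KO-5xFAD 2 and 5xFAD 2. Leaving out 1 library at a time gave 0 to 5 called genes: 0 without WT 1, WT 3, 5xFAD 2 or 5xFAD 3, 2 without Kcnip3 KO 1 and 5 without 5xFAD 1. With no filter, the count was 3 in Kcnip3 KO against WT, 1 in Kcnip3 KO-5xFAD against 5xFAD, 4 in Kcnip3 KO-5xFAD against Kcnip3 KO and 2 for the interaction, and DESeq2 gave 1 in Kcnip3 KO-5xFAD against Kcnip3 KO. The cause of these differences was not tested. The counts with 1 library left out, and those for the other comparisons, stand without the share of all genes. They are not set here against the rest of the genes, and nothing about the set is read from them. The log2 fold change of Snap25 in 5xFAD against WT was between -0.84 and -0.34 over 23 alternatives, with adjusted p from 2.4e-07 to 0.096, and between -0.79 and -0.66 with 1 library left out. Syn1 in Kcnip3 KO-5xFAD against Kcnip3 KO had -0.06, and -0.095 to 0.0040 with 1 library left out, positive without Kcnip3 KO 3. The log2 ratio of Syn2 to Syn1 differed by 0.039 between libraries labelled 5xFAD and the others, and by -0.0072 (without WT 1) to 0.084 with 1 library left out. The ratio of Sv2b to Sv2a lay between -0.39 and -0.19 with 1 library left out, and without Kcnip3 KO 2 its difference of -0.39 passed (exact permutation, adjusted p = 0.0433). The ratios were not corrected for GC content. The interaction was not fitted with only the compared groups.

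Whether the replicate numbers pair the libraries was not settled. Over 18 pairs of libraries with the same number in different genotypes, the correlation of their deviations ran from -0.32 to 0.25, and 6 were over 0.1. Pairs with different numbers were not set beside them. With the number as a replicate block in edgeR, 2 of the 38 genes were called in 5xFAD against WT, Snap25 and Napb (adjusted p = 0.0405). The share of all genes called with that block is not given, so this count is not read as a result about the set. With the block, no call in the other comparisons changed.

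At 3 libraries a genotype and these depths, Syn3, at 3.89 CPM on average, and other low genes have the widest errors.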
